A study of Mus musculus with 6 samples.

Results

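Cells detect foreign or misplaced RNA in the cytosol with a small set of proteins, and the genes of these proteins are themselves raised when the cell is exposed to interferon or to bacterial products. The 10 genes described here are cytosolic RNA sensors and RNA-binding effectors (*Ddx58*, *Ifih1*, *Dhx58*, *Zbp1*, *Eif2ak2*), the RNA editing enzyme gene *Adar*, and 4 interferon-induced poly(ADP-ribose) polymerase family genes (*Parp9*, *Parp10*, *Parp12*, *Parp14*). They were chosen by name, as every noncontrol spot of the arrays whose gene name equals one of the 10 symbols, and make up 10 of the 34844 gene names on the array. Together they were measured by 16 probes with 1 spot each. All 16 were well above background on all 6 arrays, and 0 of their spots were flagged or saturated.

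The cells were murine bone marrow-derived macrophages (BMDMs) from wild-type female C57BL/6 mice, 6 to 8 weeks old by the labels. The methods of the study name C57BL6/J mice and give a higher age range. The cells were grown for 7 days in medium conditioned by L929 cells, a fibroblast line that supplies the growth factor for macrophages. Cells were left untreated, were stimulated for 4 h with lipopolysaccharide (LPS), a bacterial cell wall component sensed by the receptor TLR4, or were pretreated for 30 min with 10 μM HBX41,108 and then given LPS in the same way (LPS+USP7i). HBX41,108 is a small molecule inhibitor of the deubiquitinase USP7. The series and a figure legend of the study give LPS at 100 ng/ml. The treatment text of the sample labels gives the same figure per microliter. The sources used here do not state if the LPS-only cultures also got solvent, whose effect, if any, cannot be told apart from that of the inhibitor. No group received the inhibitor without LPS. Each group had 2 arrays, described in the series as independent experiments, and with so few arrays all estimates below are imprecise.

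All 6 arrays lay on 1 slide, with the 3 groups in different rows, so slide row and treatment cannot be told apart. Between 25002 and 27467 spots per array were well above background, and replicates correlated with r between 0.991 and 0.996 over 20721 probes, which are not independent of each other. All 6 macrophage markers on the array were well above background on every array, including *Emr1*, *Csf1r*, and *Lyz2*. Their summed signal ranged from 657290 to 667995 in untreated cells, from 539623 to 558520 after LPS, and from 505617 to 560111 with LPS+USP7i, so that it was lower after LPS without overlap. Of the 6, *Itgam* was called lower with LPS (−0.66, adjusted p = 0.0233) and none was called with the inhibitor, where *Mertk* had a difference of −1.20 (adjusted p = 0.136). In contrast, for the erythroid markers and for *Col1a1* and *Col3a1* of fibroblasts 0 arrays passed this limit. The other fibroblast marker, *Col1a2*, passed it on 1 of the 2 untreated arrays and on no other array. All 3 neutrophil markers, 2 of 3 T cell markers, and 1 of 3 B cell markers were well above background on all arrays. For NK cells 0 of 2 markers were, and neither was called in any comparison. Their summed signal ran from 31.0 to 39.9 in untreated cells, from 42.2 to 203 with LPS, and from 31.3 to 73.6 with LPS+USP7i. The untreated and LPS ranges of this sum did not overlap. The summed signal of the neutrophil markers ranged from 4079 to 4406 in untreated cells, from 3541 to 4021 after LPS, and from 4414 to 4493 with LPS+USP7i, that of the T cell markers from 600 to 697, from 598 to 737, and from 702 to 801, and that of the B cell markers from 56.7 to 224, from 110 to 515, and from 74.3 to 308. The dendritic cell marker *Zbtb46* was at least 5.65-fold higher after LPS (adjusted p = 0.00435), a bound, since 0 of the 2 untreated arrays were well above background for it. *Flt3* passed the background limit on 0 arrays. The summed signal of the 3 dendritic cell markers ranged from 38048 to 45037 in untreated cells, from 24848 to 25307 with LPS, and from 34651 to 51402 with LPS+USP7i. Nearly all of this sum came from the third marker, *Siglech*, which was well above background on all arrays. *Siglech* differed by −0.73 with LPS (adjusted p = 0.122), opposite to *Zbtb46*, and by 0.75 with the inhibitor (adjusted p = 0.149). The part of such cells in the results below was not tested. In RNA from a whole culture, fewer cells of a type and less RNA per cell cannot be told apart.

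*Ddx58* (RIG-I) and *Ifih1* (MDA5) encode helicases that bind double-stranded RNA and signal through the adaptor MAVS to produce type I interferon, and *Dhx58* (LGP2) encodes a related helicase without the signaling domains. *Zbp1* encodes a sensor of Z-form nucleic acid that can start necroptosis. *Eif2ak2* encodes PKR, a kinase that is switched on by double-stranded RNA and blocks translation by phosphorylating eIF2α. *Adar* encodes an enzyme that converts adenosine to inosine in double-stranded RNA and so limits sensing of the cell's own RNA. The PARP family proteins transfer ADP-ribose to proteins or bind it. *Parp9* forms a complex with the ubiquitin ligase DTX3L, *Parp10*, *Parp12*, and *Parp14* encode mono-ADP-ribosyltransferases, and *Parp14* and *Parp9* also carry macrodomains that bind ADP-ribose.

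Sequence before and after the gene start was at hand for 5 of the 10 members, at 7 annotated starts (RefSeq, mouse build GRCm38.p6, 250 bases before to 50 bases after each start). The sequences below are shown because these genes moved together, and they are the stretches that hold the core of the interferon-stimulated response element (ISRE), searched as GAAANNGAA on both strands. The capitals mark the matching bases, which are the reverse complement of the core where the match is on the other strand, and each sequence is written 5′ to 3′ along the gene's strand.

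*Ifih1*, upstream match, chr2:62646349-62646377, minus strand: agaattcgcgTTCCCTTTCctgtttctca

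*Ifih1*, downstream match, chr2:62646206-62646233, minus strand: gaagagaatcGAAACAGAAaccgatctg

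*Adar*, start 3, upstream match, chr3:89730468-89730487, plus strand: gGAAAAGGAActtcctcaca

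*Adar*, start 3, downstream match, chr3:89730741-89730767, plus strand: tcaaggaaacGAAAGTGAActctgggg

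*Ddx58*, chr4:40239804-40239832, minus strand: ctgaggcagtTTCGATTTCctatggccag

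*Eif2ak2*, 2 overlapping matches, chr17:78882533-78882561, minus strand: ccgccggGAAAACGAAACAGAAgagaacc

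The core was present at 4 of the 7 starts and in 4 of the 5 genes, and 8.56% of the 32851 promoters of the same length in the table held it. *Ifih1* had 1 match on the other strand from base −112 to −104 and 1 match from base 33 to 41 after the start. *Adar* had matches only at start 3 of its 3 annotated starts, from base −249 to −241 and from base 34 to 42, and none at the other two. *Ddx58* had its match from base 4 to 12, on the other strand. In *Eif2ak2* the 2 matches overlapped and spanned bases 19 to 33. *Parp12* had no match in its window. The gamma-activated site, TTCNNNGAA, was found at 2 of the 7 starts (*Adar* start 3 and *Eif2ak2*) and in 8.3% of all promoters. The consensus site of NF-κB was found at 0 of the 7 starts and in 8.46% of all promoters, and TATAAA at 1 start, that of *Ddx58*, and in 13.6% of all promoters. A match is a run of letters and was not tested as a binding site, and the arrays do not show which start was used.

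**Figure D1:**
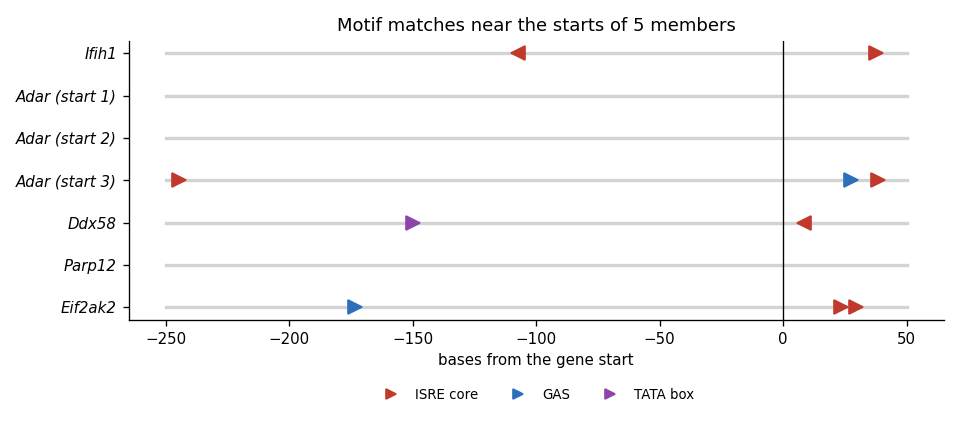
Position of motif matches relative to the annotated gene start (x axis, bases, 0 marks the start) at 7 starts of 5 members. Triangles point right for a match on the gene's strand and left for the other strand, and red marks the ISRE core, present at 4 of the 7 starts.

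LPS raised all 10 genes. Unless a second probe is named, the values and rankings of a gene are those of its brightest probe. Every gene was higher on both LPS arrays than on both untreated arrays, and each passed the threshold of an adjusted p of 0.05 in limma, with adjusted p values from 0.00458 to 0.0313. Across the array, 7.98% of the 34843 gene names tested were called higher with LPS, and 13.8% of the 18342 gene names that were well above background on both arrays of a group. The median difference of the 10 genes was 2.19 in log2 units (2.09 in replicate 1 and 2.28 in replicate 2), against a median of 0.0016 over all gene names. The smallest difference was 1.49 (*Adar*) and the largest 4.00 (*Ifih1*). Called one by one, all 16 probes were higher, where 7.09% of all 55680 probes were. These calls did not all hold with 1 array left out. *Adar* lost its call in 4 such fits, *Zbp1* in 3 (adjusted p = 0.0547 without untreated replicate 2, 0.0713 without LPS replicate 1, and 0.053 without LPS replicate 2), *Parp14* without untreated replicate 2 (0.0532), and *Ddx58* and *Parp9* without LPS replicate 1 (0.052 and 0.0503). The count was then 7 without untreated replicate 2, where 1632 of 55680 probes were called higher, and 6 without LPS replicate 1, where 2858 of 55673 were, against 3948 in the fit of all arrays. With the replicate number as a block, *Adar* lost its call (adjusted p = 0.0638).

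With the inhibitor, all 10 genes were below their LPS level on both arrays with no overlap between the groups, and 6 of them passed the threshold as lower (*Ddx58*, *Dhx58*, *Eif2ak2*, *Parp9*, *Parp10*, *Parp12*). The other four, *Ifih1*, *Zbp1*, *Adar*, and *Parp14*, had adjusted p values from 0.0641 to 0.0821. Across the array, 4.28% of gene names were called lower in this comparison, and 7.29% of those well above background. The median difference of the 10 genes was −1.39 (−1.66 in replicate 1 and −1.17 in replicate 2), and by the brightest probe the signal left with the inhibitor ran from 30.1% of the LPS signal for *Eif2ak2* to 49.1% for *Parp14*. The median over all gene names was 0.00078. Of the 16 probes, 9 were called lower and 7 were not, where 3.79% of all probes were called lower. The LPS arrays enter both comparisons, and an array that reads high for a gene with LPS enlarges both of its differences.

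The genes that passed with the inhibitor differed between the fits. In a fit of the LPS and LPS+USP7i arrays alone, 0 of the 10 genes passed in limma, although all 10 had an unadjusted p under 0.05, and the smallest adjusted p over all 55680 probes was 0.0561. Without either of the untreated arrays, or either of the LPS arrays, 0 members passed as well, at least 9 of them with an unadjusted p under 0.05. Over the whole array, 0 probes were called lower in the fits without an untreated array, 1252 without LPS replicate 1, and 1167 without LPS replicate 2, against 2109 with all arrays. With LPS+USP7i replicate 1 left out 1 member passed, where 821 of 55665 probes were called lower, and with LPS+USP7i replicate 2 left out 4 passed, where 1703 of 55676 were. With the replicate number as a block, which is also the slide column, 3 passed (*Dhx58*, *Parp10*, *Parp12*), where 3.23% of all gene names were called lower, and the adjusted p was 0.0688 for *Ddx58*, 0.0506 for *Eif2ak2*, and 0.0723 for *Parp9*. With dim probes left out of the fit and the adjustment, or with normexp background correction, all 10 passed, where 12.9% and 6.83% of all gene names in those fits were called lower. With the authors' values 8 passed, *Zbp1* and *Adar* beside the 6, where 3.57% of gene names were called lower.

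**Figure D2:**
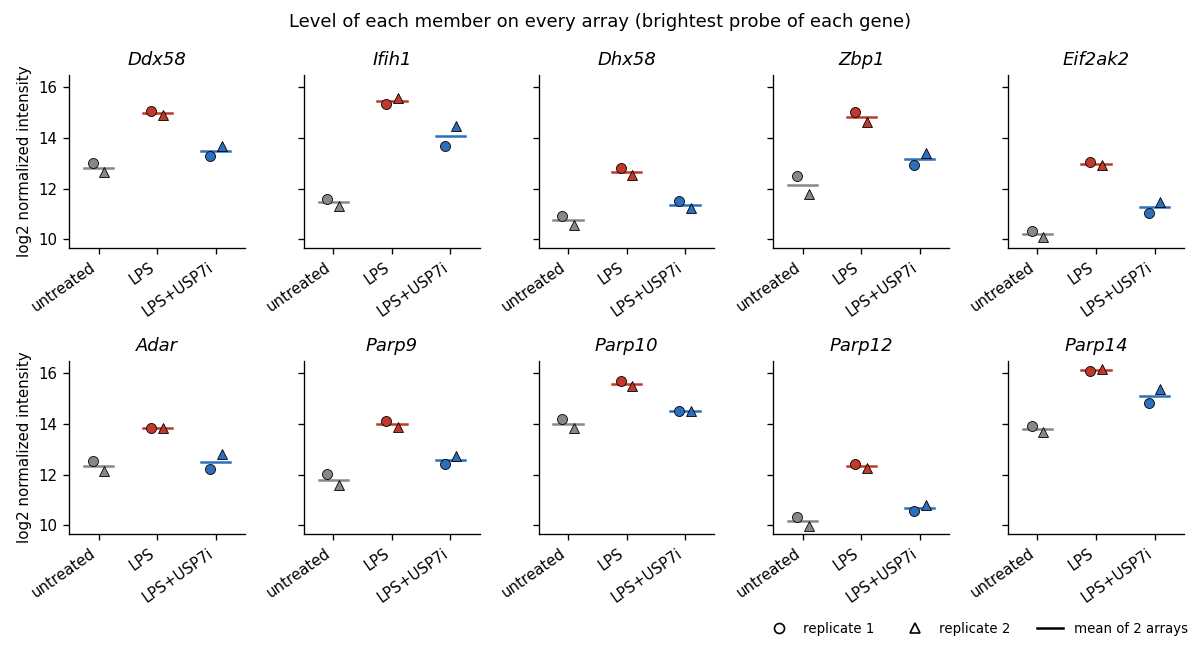
Level of each of the 10 genes on each array (y axis, log2 of the quantile-normalized intensity of the gene's brightest probe), by group. Circles are replicate 1, triangles replicate 2, and bars the mean of 2 arrays. The red LPS points lie above the grey and blue points in all 10 panels.

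Among the helicases, *Ddx58* read 13.03 and 12.64 in untreated cells, 15.05 and 14.90 after LPS, and 13.31 and 13.69 with LPS+USP7i (log2 normalized intensity of replicate 1 and replicate 2, probe at chr4:40151893-40151952, minus strand, mm9). The LPS arrays were the highest and the inhibitor arrays lay between them and the untreated arrays. The difference with LPS was 2.14 (standard error (SE) 0.21, adjusted p = 0.00852), a 4.40-fold rise. *Ddx58* then fell by 1.48 with the inhibitor (SE 0.21, adjusted p = 0.0343), to 36.0% of its LPS signal.

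*Ifih1* had the largest rise of the 10 genes. It read 11.60 and 11.32 in untreated cells, 15.33 and 15.59 after LPS, and 13.70 and 14.47 with the inhibitor (probe at chr2:62435507-62435566, minus strand, mm9). The 3 groups did not overlap, and the inhibitor arrays were the farthest apart of the 3 pairs. The rise with LPS was 16.0-fold (4.00 on the log2 scale, SE 0.31, adjusted p = 0.00562). The difference between LPS+USP7i and LPS was −1.38 (SE 0.31, adjusted p = 0.0821), short of the threshold. *Ifih1* was still 6.17-fold above untreated cells with the inhibitor (2.62 on the log2 scale, SE 0.31, adjusted p = 0.0167).

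*Dhx58* read 10.94 and 10.56 in untreated cells, 12.80 and 12.55 after LPS, and 11.51 and 11.24 with the inhibitor (probe at chr11:100556271-100556330, minus strand, mm9). Its 2 replicates gave nearly the same fall, 1.30 and 1.32 on the log2 scale. It rose 3.81-fold with LPS (1.93, SE 0.19, adjusted p = 0.00898) and fell by 1.31 with the inhibitor (SE 0.19, adjusted p = 0.0372).

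Of the other RNA-binding effectors, *Zbp1* read 12.49 and 11.78 in untreated cells, 15.03 and 14.64 after LPS, and 12.95 and 13.41 with the inhibitor (probe at chr2:173039307-173039366, minus strand, mm9). Its replicates were the least alike of the 10 genes in untreated cells. The rise with LPS was 6.51-fold (2.70, SE 0.33, adjusted p = 0.0137), and the difference with the inhibitor was −1.65 (SE 0.33, adjusted p = 0.0669). *Zbp1* passed the threshold with the authors' own normalized values (adjusted p = 0.0366), and its adjusted p ran from 0.0116 to 0.218 over all 14 alternatives.

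By the brightest probe of each gene, *Eif2ak2* kept the smallest share of its LPS signal with the inhibitor. It read 10.33 and 10.10 in untreated cells, 13.04 and 12.94 after LPS, and 11.04 and 11.48 with the inhibitor (probe at chr17:79252168-79252227, minus strand, mm9). Replicates of untreated and LPS cells were close to each other and the 3 groups were well apart. It rose 6.87-fold with LPS (2.78, SE 0.18, adjusted p = 0.00458) and fell by 1.73 with the inhibitor (SE 0.18, adjusted p = 0.0219). The level with the inhibitor remained 2.07-fold above untreated cells (1.05, SE 0.18, adjusted p = 0.0391), a call that was lost with the replicate block (adjusted p = 0.0761).

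*Adar*, the editing enzyme, had the smallest rise. It read 12.55 and 12.14 in untreated cells, 13.82 and 13.85 after LPS, and 12.21 and 12.80 with the inhibitor (probe at chr3:89555266-89555325, plus strand, mm9). By the brightest probe, the inhibitor arrays overlapped the untreated arrays, which was so for no other member. The rise was 2.81-fold (1.49, SE 0.26, adjusted p = 0.0313). By this probe it was the weakest call of the 10, and it was lost with either untreated array or either LPS array left out, whereas the second *Adar* probe had the lowest adjusted p of the 16 (1.62, SE 0.08, adjusted p = 0.00339). The difference with the inhibitor was −1.33 (SE 0.26, adjusted p = 0.0641), which did not pass, and with the authors' values it did (adjusted p = 0.0342).

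Among the PARP family genes, *Parp9* read 12.01 and 11.58 in untreated cells, 14.11 and 13.86 after LPS, and 12.43 and 12.75 with the inhibitor (probe at chr16:35972577-35972636, plus strand, mm9). It rose 4.57-fold (2.19, SE 0.22, adjusted p = 0.00875) and fell by 1.40 (SE 0.22, adjusted p = 0.0406). Its profile over the 6 arrays was the closest of the 10 to the mean of the other members, with a root mean square distance of 0.134 on the log2 scale, and that of *Ifih1* was the farthest, at 1.54. These distances describe 6 arrays and have no test.

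*Parp10* read 14.18 and 13.83 in untreated cells, 15.68 and 15.48 after LPS, and 14.52 on both inhibitor arrays (probe at chr15:76063433-76063492, minus strand, mm9). The replicates of the inhibitor group were closer than for any other member. It rose 2.97-fold (1.57, SE 0.15, adjusted p = 0.00851) and fell by 1.05 (SE 0.15, adjusted p = 0.0358).

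*Parp12* read 10.34 and 9.97 in untreated cells, 12.43 and 12.24 after LPS, and 10.56 and 10.80 with the inhibitor (probe at chr6:39036828-39036887, minus strand, mm9). Only a small distance remained between the inhibitor and the untreated arrays. It rose 4.53-fold (2.18, SE 0.18, adjusted p = 0.00616) and fell by 1.66 (SE 0.18, adjusted p = 0.0219), to 31.7% of its LPS signal.

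*Parp14* read 13.91 and 13.69 in untreated cells, 16.10 and 16.19 after LPS, and 14.84 and 15.39 with the inhibitor (probe at chr16:35832992-35833051, minus strand, mm9). Its replicates were close with LPS and apart with the inhibitor. The rise was 5.08-fold (2.34, SE 0.22, adjusted p = 0.00773) and the difference with the inhibitor was −1.03 (SE 0.22, adjusted p = 0.0748), the smallest of the 10 by the brightest probe. It stayed 2.49-fold above untreated cells (1.32, SE 0.22, adjusted p = 0.0342), which was lost with the replicate block (adjusted p = 0.0611).

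The third comparison asks how far the level with LPS+USP7i was from that of untreated cells. The difference was positive for all 10 genes, with a median of 0.73, and passed the threshold as higher for 3 of them, *Ifih1*, *Eif2ak2*, and *Parp14*. Across the array, 6.15% of gene names were called higher in this comparison, 10.8% of those well above background, and 5.65% of probes, while 6 of the 16 probes of the members were. The 7 other genes had differences from 0.16 (*Adar*) to 1.05 (*Zbp1*), with adjusted p values of 0.108 and above, and 6 of them did not overlap with untreated cells. With the replicate block *Ifih1* passed, *Eif2ak2* and *Parp14* did not, and *Dhx58* did (adjusted p = 0.0308). The count of 3 was 8 with 75th percentile scaling, where 35.1% of all gene names were called higher, 5 with dim probes left out, where 15.4% were, and 0 with either untreated or either LPS array left out, and *Adar* changed sign without untreated replicate 2 (−0.045) and without LPS+USP7i replicate 2 (−0.14).

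**Figure D3:**
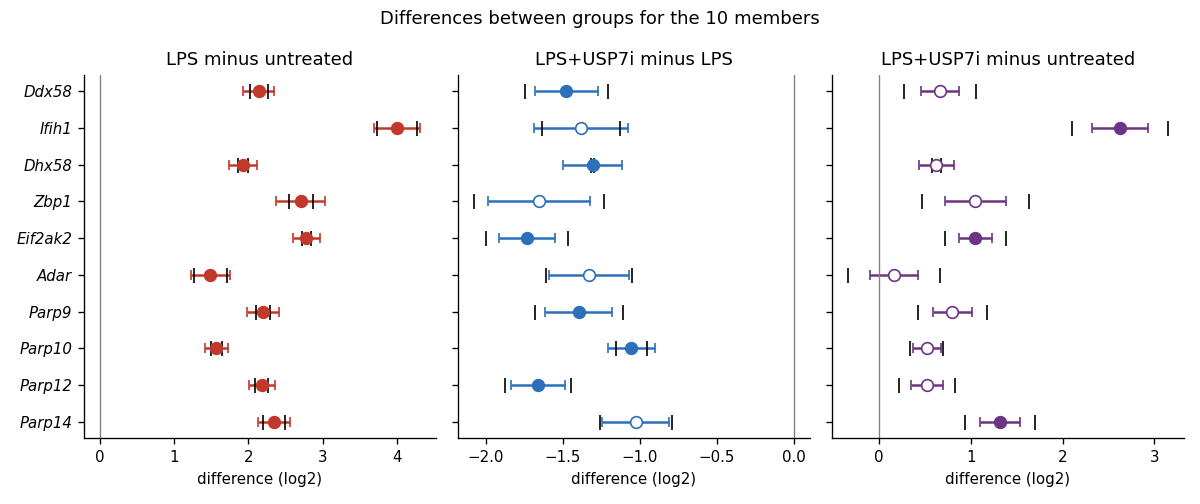
Difference between groups for the brightest probe of each gene (x axis, log2), in 3 comparisons. Circles are estimates from limma with their SE, filled where the adjusted p is under 0.05, and black ticks are the differences between arrays of the same replicate number. All 10 are filled for LPS minus untreated, 6 for LPS+USP7i minus LPS, and 3 for LPS+USP7i minus untreated.

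For 6 of the 10 genes a second probe lay at another position, which in *Parp10* overlaps the first. The 2 probes of *Zbp1*, of *Parp9*, and of *Parp10* are annotated to different transcript records. The 6 pairs did not always move by the same amount. The difference between the 2 probes was tested in its own fit over the 3855 gene names with 2 probes well above background on all arrays, a test added after the values had been seen. Across these gene names, the 2 probes differed in their response to LPS in 23% and in their response to the inhibitor in 8.17%.

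In the response to the inhibitor, the widest gap of the 6 pairs was in *Parp9*. Its second probe (chr16:35968243-35968302, plus strand, mm9) was dim, at 4.57 and 4.32 in untreated cells, 7.74 and 7.57 after LPS, and 7.26 and 7.79 with the inhibitor. It rose 9.24-fold with LPS (3.21, SE 0.22, adjusted p = 0.00493), while its difference with the inhibitor was −0.13 (SE 0.22, adjusted p = 0.821) and the 2 groups overlapped. The difference between the brightest and the second *Parp9* probe in the response to the inhibitor was −1.26 (SE 0.13, adjusted p = 0.00949). In the response to LPS it was −1.01 (SE 0.13, adjusted p = 0.00457). With LPS+USP7i, the second probe was 8.42-fold above untreated cells (adjusted p = 0.0079) and the brightest 1.74-fold (adjusted p = 0.108). Whether the second probe lies in an exon, an intron, or a UTR was not determined here, since the annotation at hand is of another build.

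The second *Ifih1* probe (chr2:62434960-62435019, minus strand, mm9) read 5.75 and 5.36, then 10.26 and 10.24 with LPS, then 7.70 and 8.55 with the inhibitor. It moved more than the brightest probe both ways, rising 26.0-fold with LPS (adjusted p = 0.00508) and falling by 2.13 with the inhibitor (SE 0.33, adjusted p = 0.0418). The gap between the 2 probes was −0.70 for LPS (SE 0.13, adjusted p = 0.0174) and 0.75 for the inhibitor (SE 0.13, adjusted p = 0.0317). By the second probe, *Ifih1* was called lower with the inhibitor, and by the brightest it was not.

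The second *Zbp1* probe (chr2:173032258-173032317, minus strand, mm9) read 9.69 and 8.25 in untreated cells, 13.21 and 12.81 after LPS, and 10.81 and 10.96 with the inhibitor. It rose 16.4-fold (4.04, SE 0.53, adjusted p = 0.0161), which exceeded the rise of the brightest probe by 1.34 on the log2 scale (gap −1.34, SE 0.25, adjusted p = 0.0172). Its difference with the inhibitor was −2.13 (SE 0.53, adjusted p = 0.105).

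For *Ddx58* the second probe (chr4:40151133-40151192, minus strand, mm9) read 7.69 and 7.37, then 9.53 and 9.57, then 7.22 and 7.78. Its inhibitor arrays overlapped the untreated arrays. It rose by 2.02 with LPS (SE 0.23, adjusted p = 0.0121) and fell by 2.05 with the inhibitor (SE 0.23, adjusted p = 0.0244), and the gap to the brightest probe in the second comparison was 0.58 (SE 0.12, adjusted p = 0.0478).

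The second *Adar* probe (chr3:89557158-89557217, plus strand, mm9) read 10.20 and 10.22, then 11.91 and 11.76, then 11.02 and 10.92. Its replicates were closer than those of the brightest probe in untreated and inhibitor-treated cells. It rose 3.07-fold with LPS, and fell by 0.86 with the inhibitor (SE 0.08, adjusted p = 0.0188) and stayed 1.69-fold above untreated cells (adjusted p = 0.0143), so that the second probe passed 2 tests that the brightest did not. The gap between the *Adar* probes was −0.47 for the inhibitor (SE 0.26, adjusted p = 0.369). The second *Parp10* probe (chr15:76063393-76063452, minus strand, mm9), which overlaps the brightest one, read 5.11 and 4.71, then 7.24 and 6.50, then 5.68 and 5.63. Its difference with the inhibitor was −1.22 (SE 0.30, adjusted p = 0.102), and the gap between the *Parp10* probes was 0.16 (SE 0.19, adjusted p = 0.683).

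**Figure D4:**
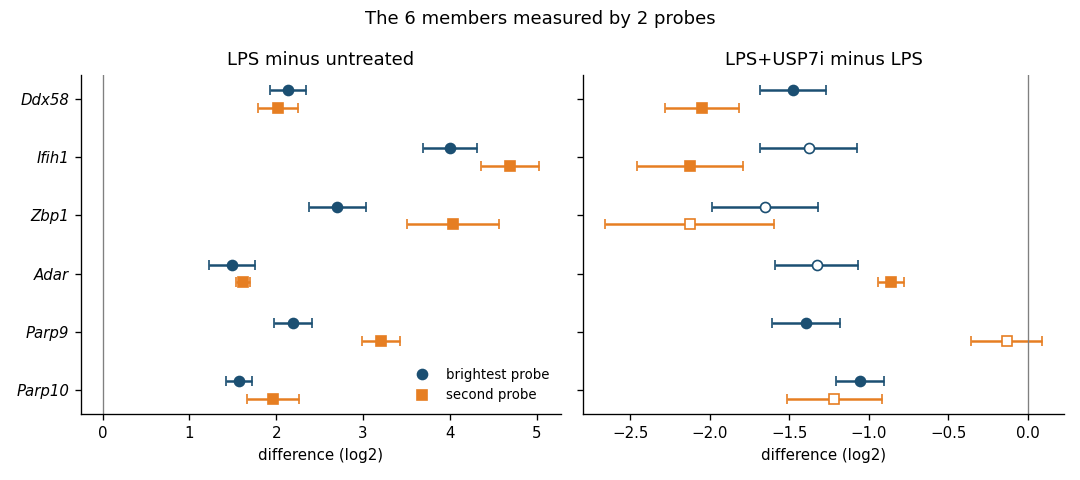
Difference with LPS (left) and with the inhibitor (right) for the 6 genes with 2 probes (x axis, log2, estimate and SE). Blue circles are the brightest probe, orange squares the second, filled where the adjusted p is under 0.05. The second *Parp9* probe lies at −0.13 on the right, next to the zero line, and the brightest at −1.40.

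Other genes of the same pathways were taken from 5 lists. Beside the 7.98% of gene names called higher with LPS, 12.8% were called lower, and beside the 4.28% called lower with the inhibitor, 5.51% were called higher. No gene of the lists that was called turned its direction under 75th percentile scaling, normexp correction, or with the authors' values. In a fit of the LPS and LPS+USP7i arrays alone, 0 of 55680 probes passed, so all 22 inhibitor calls of the lists were lost. Values of the list genes with the replicate block are not given here. In the other settings named, some calls were lost. With the inhibitor, *Trim25*, *Parp1*, and *Parp4* lost theirs under 75th percentile scaling and with the authors' values, and *Fadd* with the authors' values. For LPS, *Traf3*, *Tnks2*, and *Tarbp2* lost theirs under both, and *Tbk1*, *Parp2*, and *Ripk1* with the authors' values. Other calls were gained, 6 for LPS and 1 for the inhibitor under 75th percentile scaling, and 3 and 4 with normexp correction. Among genes given below as not passing, *Irf9* gained its call with LPS under 75th percentile scaling, *Irf3* with LPS under normexp correction, and *Stat2* and *Mlkl* with the inhibitor under normexp correction. The brightest *Trim25* probe also gained a call with LPS under 75th percentile scaling, in a direction not given here. Of the 17 adaptors, ligases, kinases, and products of RNA sensing, 7 rose and 4 fell with LPS (median difference 0.50), and 2 rose and 3 fell with the inhibitor (median −0.00052).

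*Mavs*, the adaptor on mitochondria that RIG-I and MDA5 signal through, fell with LPS by 1.21 (SE 0.13, adjusted p = 0.0101), and its difference with the inhibitor was 0.50 (adjusted p = 0.11). *Tbk1*, a kinase that phosphorylates IRF3, rose by 0.67 with LPS (SE 0.07, adjusted p = 0.00873), and its relative *Ikbke* rose by 2.61 (SE 0.21, adjusted p = 0.00616). With the inhibitor *Ikbke* fell by 1.64 (SE 0.21, adjusted p = 0.0289), while *Tbk1* had a difference of −0.24 (adjusted p = 0.124). *Irf3*, the transcription factor that these kinases activate, had differences of −0.60 and −0.30 that did not pass (adjusted p = 0.0666 and 0.35). *Irf7*, its interferon-induced relative, rose by 1.98 with LPS (SE 0.34, adjusted p = 0.0301) and differed by −1.09 with the inhibitor (adjusted p = 0.162).

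*Tlr3*, the endosomal receptor for double-stranded RNA, read 5.88 and 5.50 in untreated cells, 8.98 and 8.93 after LPS, and 6.15 and 6.98 with the inhibitor. It rose by 3.27 (SE 0.32, adjusted p = 0.00887) and fell by 2.39 with the inhibitor (SE 0.32, adjusted p = 0.0319). The probes of *Trim25*, a ligase that modifies RIG-I, disagreed. With LPS the brightest differed by −0.24 (adjusted p = 0.0728) and the second rose by 1.06 (adjusted p = 0.0142). The brightest rose by 0.55 with the inhibitor (adjusted p = 0.0217) and the second fell by 0.83 (adjusted p = 0.0424).

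*Ifnb1* encodes interferon-β, which is a product of RNA sensing and of TLR4 signaling through TRIF. It read 4.80 and 4.34 in untreated cells, where 1 of the 2 arrays was well above background, 12.01 and 12.85 after LPS, and 12.87 and 12.52 with the inhibitor. The fitted rise with LPS was 7.86 (SE 0.36, adjusted p = 0.00317), from an untreated level that only 1 array measured. The arrays with and without inhibitor overlapped, and the difference was 0.26 (SE 0.36, adjusted p = 0.766).

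Of the 12 other PARP family genes and *Dtx3l*, taken as 1 list of 13, 6 rose and 5 fell with LPS (median 0.30), and 1 rose and 6 fell with the inhibitor (median −0.23). *Dtx3l*, the partner of PARP9, lies between *Parp14* and *Parp9* in the RefSeq gene order. It read 12.30 and 11.99, then 14.21 and 14.13, then 12.65 and 13.00, a rise of 2.02 (SE 0.18, adjusted p = 0.00692) and a fall of 1.34 (SE 0.18, adjusted p = 0.0298). Its other two probes rose by 3.13 and 3.12 with LPS, and with the inhibitor they stood at 0.499 and 0.551 times their LPS signal, which did not pass (adjusted p = 0.108 and 0.161). *Parp8* and *Parp11*, named here after their values were seen, rose and then fell by 2.45 and 1.55 with the inhibitor (adjusted p = 0.0154 and 0.0409).

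Some PARP genes that rose with LPS were not called lower with the inhibitor. *Tiparp* (PARP7) read 10.53 and 10.52 in untreated cells, 13.79 and 13.76 after LPS, and 13.84 and 14.12 with the inhibitor. It rose by 3.25 (SE 0.11, adjusted p = 0.00261), and its difference with the inhibitor was 0.20 (SE 0.11, adjusted p = 0.448). *Zc3hav1* (ZAP, a binder of viral RNA) rose by 0.86 (SE 0.12, adjusted p = 0.0197) and differed by 0.44 with the inhibitor (adjusted p = 0.135). Its second probe rose by 2.02 (adjusted p = 0.00691) and differed by −0.25 with the inhibitor (adjusted p = 0.548). *Parp1*, which acts in DNA repair, fell by 0.76 with LPS (adjusted p = 0.00637) and by a further 0.39 with the inhibitor (adjusted p = 0.0446). *Parp16*, named here after its values were seen, went from 6.35 and 6.67 with LPS to 9.63 and 9.82 with the inhibitor, a rise of 3.21 (SE 0.17, adjusted p = 0.0112).

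Of the 11 other eIF2α kinases and double-stranded RNA-binding proteins, 1 rose and 5 fell with LPS (median −0.58), and 2 rose and 2 fell with the inhibitor (median 0.011). The kinases that act on eIF2α beside PKR are *Eif2ak1*, *Eif2ak3*, and *Eif2ak4*. *Eif2ak3* (PERK) fell by 2.90 with LPS (SE 0.28, adjusted p = 0.0085) and rose by 1.70 with the inhibitor (SE 0.28, adjusted p = 0.0461), and *Eif2ak4* (GCN2) fell by 1.21 and rose by 1.11 (SE 0.12, adjusted p = 0.00877 and 0.0223) by its brightest probe. Another *Eif2ak4* probe that was well above background on all arrays did not pass, with differences of 0.22 and 0.53 (adjusted p = 0.707 and 0.389), and a dimmer one passed in the same directions as the brightest, with 0 of the 2 LPS arrays well above background. *Eif2ak1* (HRI) had differences of −0.04 and 0.01 (adjusted p = 0.845 and 0.983). *Prkra*, which encodes PACT, an activator of PKR, fell by 0.71 with LPS (adjusted p = 0.0281) and differed by −0.09 with the inhibitor (adjusted p = 0.767).

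Of the 7 genes of interferon receptor signaling described here, 3 rose with LPS (median 0.30) and 3 fell with the inhibitor (median −0.56). *Stat2*, a transcription factor activated by the receptor, rose by 1.04 (SE 0.13, adjusted p = 0.0151) and differed by −0.56 with the inhibitor (adjusted p = 0.0943). *Irf9*, its partner, had differences of 0.23 and 0.08 (adjusted p = 0.339 and 0.807). *Ifnar1*, a chain of the type I interferon receptor, fell by 0.97 with the inhibitor (SE 0.15, adjusted p = 0.0397). Its response to LPS depended on the probe, with −0.17 for the brightest (adjusted p = 0.564) and 1.63 and 1.83 for the other two (adjusted p = 0.00463 and 0.00622).

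The list of 5 ZBP1 necroptosis partners holds *Ripk1*, *Ripk3*, *Mlkl*, *Casp8*, and *Fadd*, whatever their role in necroptosis. With LPS 3 rose and 1 fell (median 0.57). With the inhibitor 2 rose and 1, *Casp8*, fell (median −0.15). *Mlkl*, which encodes the executioner of necroptosis, rose by 2.45 with LPS (SE 0.28, adjusted p = 0.0122) and differed by −0.98 with the inhibitor (adjusted p = 0.144). *Ripk3*, the kinase that ZBP1 binds, had a difference of −0.12 with LPS (adjusted p = 0.718) and rose by 0.99 with the inhibitor (SE 0.15, adjusted p = 0.0386). The mRNA of *Usp7*, whose protein the inhibitor acts on, differed by 0.44 with LPS (adjusted p = 0.104) and by −0.14 with the inhibitor (adjusted p = 0.627).

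**Figure D5:**
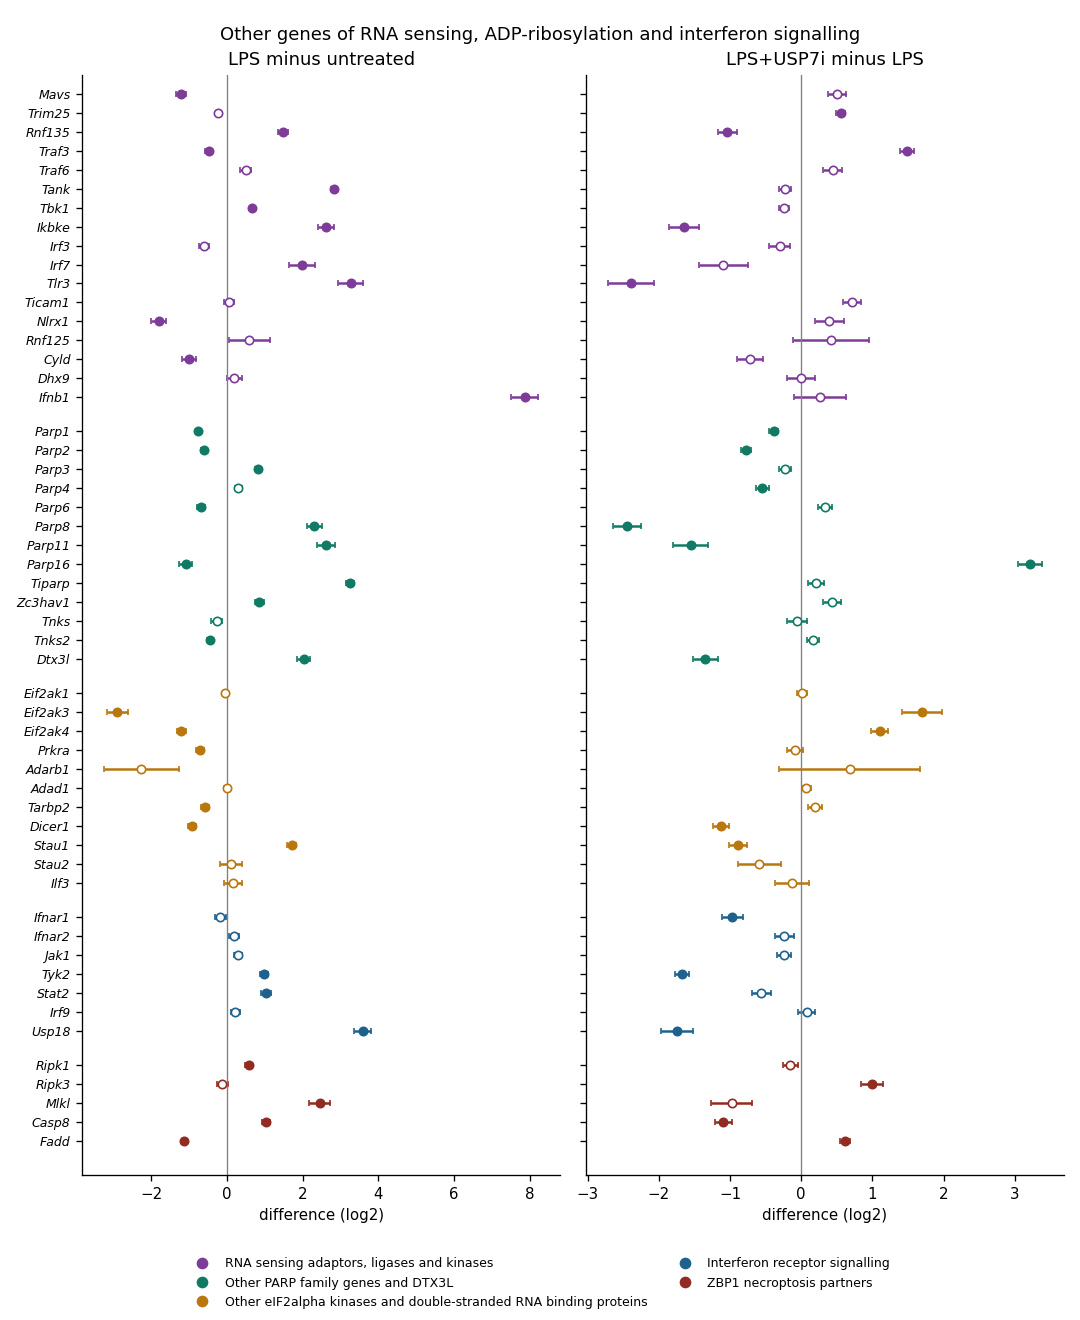
Difference with LPS (left) and with the inhibitor (right) for the genes of 5 lists (x axis, log2, estimate and SE of the brightest probe, filled where the adjusted p is under 0.05). Colors are the lists named in the key. *Ifnb1*, above background on 1 of 2 untreated arrays, lies at 7.86 on the left and 0.26 on the right, and *Parp16* at 3.21 is the point farthest to the right in the right panel.

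Likeness to the mean profile of the members over the 6 arrays was measured as a distance and as a correlation, both without a test. The search covered 16317 other gene names, only those well above background on both LPS arrays, where the members were highest. The 5 nearest by distance included *Il15ra*, the transcribed pseudogene *Slfn10-ps*, and *Tra2a*, a splicing factor gene, at 0.113, 0.123, and 0.125 on the log2 scale, and 2 transcripts without a RefSeq name, at 0.0793 and 0.123. *Tra2a* rose by 2.17 (adjusted p = 0.00374) and fell by 1.31 (adjusted p = 0.0178). By correlation, the 5 nearest included *Lcp2*, *Serpina3g*, *Iigp1*, and *Rnf213*, with r between 0.9992 and 0.9998, beside 1 transcript without a RefSeq name. Their size of change was free to differ, and *Serpina3g* rose by 8.20 and fell by 4.91 (adjusted p = 0.00502 and 0.0257). These likenesses rest on the same 6 arrays as the values of the members.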

How the data were processed

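RNA from BMDMs was labeled with Cy3 and hybridized to 1-color Agilent mouse arrays. The authors deposited, for each array, the intensity of every spot after background correction by the scanner software (Agilent Feature Extraction 10.7.3.1), with probe positions on mouse build mm9. A second file deposited by the authors holds log2 values, quantile-normalized between arrays, and served as an alternative (its values matched a normexp-corrected, quantile-normalized version of the raw spots with r = 0.99997).

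Here the processed signal was taken to log2 and quantile-normalized over noncontrol spots, outlier-flagged spots were left out, and spots of a probe were averaged (R 4.3.3). A linear model of the 3 groups was fitted to all 6 arrays with limma 3.58.1, with Benjamini-Hochberg adjustment over 55680 probes and a threshold of 0.05. A gene is represented by its probe with the highest mean. The model was also tried on simulated data, whose outcome is not given here. Other scalings, filters, fits, probe rules, and leaving out each array were tried. The members and lists were chosen with earlier results of these data known. All 10 members, a preset part of the lists, *Usp7*, and the 5 gene names nearest by each likeness measure are named. *Parp8*, *Parp11*, and *Parp16* were not in the preset part and were added after their values were seen. Some other list genes are named only because their calls were lost or to show what a list holds. Tests between arrays measure the spread of 2 arrays per group, and an exact permutation test of 2 against 2 cannot go below 0.333, so none was used. 1 gene was left out of the lists and is not reported here, and other list genes enter by their counts.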

Additional observations from a re-analysis of the deposited data

How the results depend on the processing

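All 10 members kept their direction for LPS against untreated and for LPS+USP7i against LPS under all 14 alternatives run for single genes, whereas the calls moved. For LPS, 129 of 140 gene values stayed on their side of the threshold and 11 lost their call. For LPS+USP7i against LPS 83 stayed, 42 lost their call, and 15 gained one, and for LPS+USP7i against untreated 111 stayed, 18 lost, 9 gained, and 2 reversed. For LPS against untreated, the median of the members was 2.62 with 75th percentile scaling. The median of all probes was then 0.51 (0.0045 with quantile normalization), so that members lay 2.12 above it. The scaling also raised the share of higher among called probes from 39.9% to 79.3% (from 43.5% to 82.7% for LPS+USP7i against untreated). Leaving out 1 array gave medians from 1.99 to 2.39 and 6 to 10 members called, with 6 without LPS replicate 1. For LPS+USP7i against LPS, 10 members were called lower with normexp correction and 10 with dim probes left out, and 0 in the fit of the 2 groups only. Leaving out 1 array gave 0 to 4 calls. The median of the members stayed between −1.65 and −1.26. For LPS+USP7i against untreated, the count was 8 with 75th percentile scaling, 5 with dim probes left out, 5 with the probe of lowest adjusted p, 0 in the fit of the 2 groups, and 0 to 3 with 1 array left out. In this comparison *Adar* turned to −0.045 without untreated replicate 2 and −0.14 without LPS+USP7i replicate 2, with a range from −0.14 to 0.46 over the arrays left out. Samples with the same replicate number, which also share a slide column, deviated together (r = 0.316, 0.287, and 0.309 between groups). With the replicate block 9 members were called with LPS, 3 with the inhibitor (*Dhx58*, *Parp10*, *Parp12*), and 2 for LPS+USP7i against untreated, where 8.43%, 3.23%, and 6.35% of all gene names were called in the same direction. The cause of these shifts was not tested. In a fit with 1 array left out, the lone array is assumed to vary like the other groups.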
